A study of Mus musculus with 8 samples.

Results

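Cathepsins are the proteases of the lysosome, and cystatin C, encoded by *Cst3*, is a secreted inhibitor of the cysteine class of these enzymes. The 10 genes described here are the 9 cathepsin genes *Ctsa*, *Ctsb*, *Ctsc*, *Ctsd*, *Ctsh*, *Ctsk*, *Ctsl*, *Ctss* and *Ctsz*, together with *Cst3*. They were taken by name from the 54658 gene symbols in the count table, and all 10 were found. RNA-Seq was performed on primary articular chondrocytes, which were isolated from cartilage of the femoral head of wild-type mice aged 3 weeks. In the IL-1β group (n = 4), cells received 1 ng/mL IL-1β, a proinflammatory cytokine, for 24 h, and in the vehicle group (n = 4) they received vehicle for the same time. The cells were cultured in medium with fetal bovine serum, and neither the sex and strain of the mice nor any pooling of animals is given in the sources used here. Since nothing states that the replicates were separate cultures or animals, p-values measure only the spread between these samples.

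Cathepsins are made as inactive precursors with a propeptide, are tagged with mannose 6-phosphate in the Golgi, and become active in the acid lumen of endosomes and lysosomes. They differ in the residue that attacks the peptide bond. *Ctsb*, *Ctsc*, *Ctsh*, *Ctsk*, *Ctsl*, *Ctss* and *Ctsz* encode cysteine proteases of the papain type, *Ctsd* an aspartic protease and *Ctsa* a serine carboxypeptidase. In joint tissue these enzymes are best known for the breakdown of matrix: cathepsin K cleaves the collagen triple helix, and cathepsins B, L and S can cleave aggrecan. Cystatin C blocks enzymes of the papain type by wedging a conserved loop into their active site, and has no known action on cathepsins A and D.

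The sites at which enzyme and inhibitor meet are shown as coding sequence. They are given for *Cst3* and for the 7 cathepsin genes named above as encoding papain-type cysteine proteases. *Ctsa* and *Ctsd* were not searched for such a site, so the sequences do not themselves make this division. How strongly cystatin C acts on each of the 7 is not shown by these sequences. Each stretch of 27 bases was read from the GENCODE vM21 transcript numbered 201 of the gene (assembly GRCm38, also called mm10), written 5′ to 3′ on the coding strand. Capitals mark the codon of the catalytic cysteine.
*Ctsb* (chr14:63135702-63136412, plus strand, across the junction of exons 4 and 5): ggctcctgcggctctTGTtgggcattt
*Ctsc* (chr7:88302300-88308038, plus strand, across the junction of exons 5 and 6): gaatcttgtggaagcTGCtactcattt
*Ctsh* (chr9:90064507-90064533, plus strand, exon 6): ggggcctgtggcagcTGCtggactttc
*Ctsk* (chr3:95502582-95502608, plus strand, exon 5): ggccagtgtggttccTGTtgggctttc
*Ctsl* (chr13:64367066-64367092, minus strand, exon 5): ggccagtgcgggtctTGTtgggcgttt
*Ctss* (chr3:95545333-95545359, plus strand, exon 5): ggttcttgtggtgccTGCtgggctttc
*Ctsz* (chr2:174438187-174438213, minus strand, exon 2): cagtactgtggttccTGCtgggcccac
In *Cst3*, capitals mark the 5 codons of the loop that enters the active site.
*Cst3* (chr2:148872913-148875161, minus strand, across the junction of exons 1 and 2): cgtaagCAGCTCGTGGCTGGAgtgaac
Spans that cross a junction include the intron. Between the encoded proteins of the 7 cysteine cathepsins, identity over aligned residues was 30.7% (*Ctsb* and *Ctsl*) to 58.0% (*Ctsk* and *Ctss*). *Ctsk* and *Ctss* are also neighbors on chromosome 3, with 17423 bases between the end of *Ctsk* and the start of *Ctss*.

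Total counts were 10992355 to 17104351 per sample with IL-1β and 13970959 to 17456063 with vehicle. Abundances are in CPM, a gene's share of the sample's counts on the usual fixed scale, after TMM scaling in edgeR (factors of 0.984 to 1.01). The smallest abundance taken as shown was 3 counts, which is 0.172 to 0.273 CPM depending on the sample and covers counting error only. A gene was tested where 4 or more samples exceeded 1 CPM, by edgeR's quasi-likelihood test with Benjamini-Hochberg adjustment over the 14404 genes that met this. A gene was called higher or lower at an adjusted p-value under 0.05, and counted as a differentially expressed gene (DEG) if its log2 fold change also exceeded 1 in size.

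Upon IL-1β, 4 abundant cysteine cathepsins (*Ctsl*, *Ctsz*, *Ctsb* and *Ctsk*) and *Ctsa* rose by 1.12- to 1.44-fold, whereas *Ctsd*, *Cst3* and *Ctsc* fell. Of the 10 genes, 9 passed the filter on low counts, and of these 5 were higher, 3 were lower and 1, *Ctsh*, did not pass the test. Over all genes tested, 40.2% were called in either direction, 20.4% higher and 19.8% lower. *Ctss* was below the filter in every sample, and *Ctsc* passed it only through the vehicle samples, so the 9 are not a count of all members. *Ctsc* was the only DEG among the members, while 5.21% of all genes tested were DEGs, 2.86% upregulated and 2.35% downregulated. With a CPM above 1 required in all 8 samples, which leaves out *Ctsc*, 5 members were higher, 2 were lower and 0 were DEGs. The IL-1β and vehicle samples did not overlap for the 9, and for 36.8% of all genes tested. For *Ctsc*, the separation follows from passing the filter through the vehicle samples alone. The median absolute log2 fold change was 0.30 for the 9, *Ctsc* included, and 0.157 for all genes tested. The members were chosen with earlier results of these data known and were not matched to all genes by abundance. Their counts and median are therefore descriptions. In bulk RNA, fewer cells of a kind and less RNA per cell cannot be told apart.

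**Figure D1:**
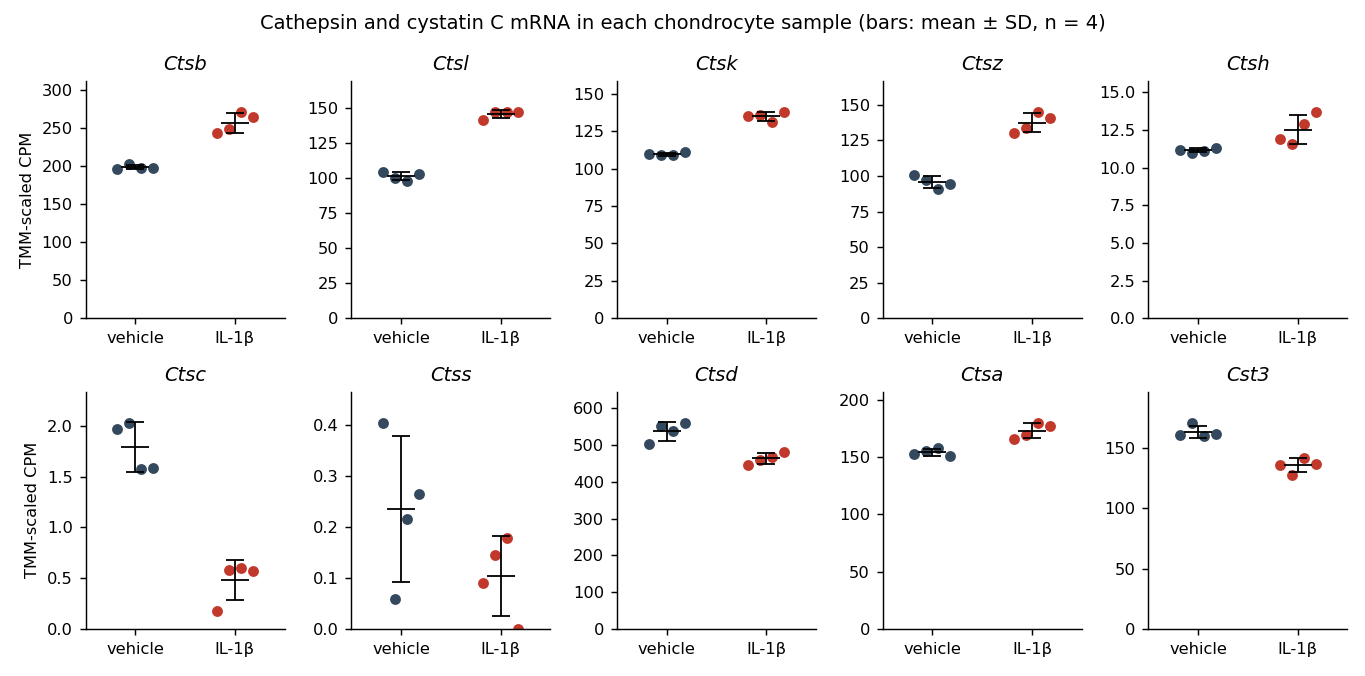
TMM-scaled CPM (y axis, from 0, scaled separately for each gene) of the 10 members in the 4 vehicle and 4 IL-1β samples. Points are samples and bars are mean ± SD. In 9 of the genes the groups do not overlap, and *Ctss* is the exception, with no sample above 0.405 CPM.

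*Ctsl* encodes cathepsin L, an endopeptidase of broad specificity. Its abundance was 141, 147, 147 and 147 CPM in IL-1β replicates 1 to 4 and 104, 100, 97.9 and 103 CPM in vehicle replicates 1 to 4. Every IL-1β sample was above every vehicle sample, with a spread of a few CPM in each group. The means were 146 ± 3.12 CPM (SD, n = 4) and 101 ± 2.79 CPM (SD, n = 4), IL-1β being given first, and edgeR gave a log2 fold change of 0.53 ± 0.0323 (SE) at an adjusted p = 5.82e-14, or 1.44-fold with a 95% confidence interval of 1.38 to 1.51. *Ctsl* (ENSMUSG00000021477.9) lies on the minus strand of chromosome 13 from 64359337 to 64370890. Of its exon bases, 26.8% are shared with the annotated genes *Gm47123* and *Gm49230*, both of which had 0 counts in every sample.

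*Ctsz* encodes cathepsin Z (also called X), a carboxypeptidase that trims residues from the end of proteins. IL-1β replicates 1 to 4 had 130, 134, 145 and 141 CPM, and vehicle replicates 1 to 4 had 101, 97.1, 90.8 and 94.2 CPM. The lowest IL-1β sample was well above the highest vehicle sample. The means were 138 ± 6.48 and 95.9 ± 4.53 CPM (SD, n = 4), and edgeR gave a log2 fold change of 0.52 ± 0.0381 (SE) at an adjusted p = 2.84e-12. *Ctsz* (ENSMUSG00000016256.10) lies on the minus strand of chromosome 2 from 174427493 to 174439039.

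*Ctsb* encodes cathepsin B, which acts as an endopeptidase and as a carboxypeptidase. Its abundance was 243, 249, 271 and 265 CPM in IL-1β replicates 1 to 4 and 196, 202, 198 and 198 CPM in vehicle replicates 1 to 4. The vehicle samples lay within a few CPM of each other, and the IL-1β samples were more spread but all higher. The means were 257 ± 13.3 and 198 ± 2.58 CPM (SD, n = 4), and edgeR gave a log2 fold change of 0.38 ± 0.0344 (SE) at an adjusted p = 3.38e-10. *Ctsb* (ENSMUSG00000021939.8) lies on chromosome 14 from 63122462 to 63145923, and 12.8% of its exon bases are shared with *Fdft1* on the opposite strand, which had 189 to 315 counts per sample.

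*Ctsk* encodes cathepsin K, the collagenolytic enzyme of osteoclasts. It had 135, 136, 131 and 138 CPM in IL-1β replicates 1 to 4 against 110, 109, 109 and 111 CPM in vehicle replicates 1 to 4. This was the steadiest of the members in vehicle, with a coefficient of variation of 0.781%, and the groups were clearly separate. The means were 135 ± 2.65 and 109 ± 0.855 CPM (SD, n = 4), and edgeR gave a log2 fold change of 0.30 ± 0.031 (SE) at an adjusted p = 3.77e-09. *Ctsk* (ENSMUSG00000028111.4) lies on chromosome 3 from 95499256 to 95509362 and shares no exon base with another annotated gene.

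*Ctsh* encodes cathepsin H, an aminopeptidase, and was far less abundant. Its values were 11.9, 11.6, 12.9 and 13.7 CPM in IL-1β replicates 1 to 4 and 11.2, 11, 11.1 and 11.3 CPM in vehicle replicates 1 to 4. The groups did not overlap, but the lowest IL-1β sample was near the highest vehicle sample. Here edgeR gave 0.17 ± 0.0863 (SE) on the log2 scale at an adjusted p = 0.115, and the 95% confidence interval of the fold was 0.998 to 1.28.

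*Ctsc* encodes cathepsin C, a dipeptidyl peptidase known for activating the serine proteases of leukocyte granules. Its log2 fold change of -1.83 ± 0.287 (SE), at an adjusted p = 6.03e-06 in edgeR, was the largest of the members in size, but rests on few reads. The IL-1β replicates 1 to 4 held 2, 8, 10 and 8 counts and the vehicle replicates 1 to 4 held 34, 35, 22 and 24 counts. Every IL-1β sample was under 1 CPM and every vehicle sample above it, so the gene passed the filter only where it was high. Its fold and p-value are therefore given as a description. The means were 0.481 ± 0.201 CPM in the treated and 1.79 ± 0.244 CPM in the vehicle samples (SD, n = 4), and the 95% confidence interval of the log2 fold change was -2.42 to -1.24. Replicate 1 with IL-1β was at 0.181 CPM, against 0.569 to 0.596 CPM in the other 3, and without it the log2 fold change was -1.62.

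*Ctss* encodes cathepsin S, which is most abundant in antigen-presenting cells, where it cleaves the invariant chain of MHC class II. The IL-1β replicates 1 to 4 held 1, 2, 3 and 0 counts and the vehicle replicates 1 to 4 held 7, 1, 3 and 4 counts. All IL-1β samples were at or under the smallest abundance taken as shown, and the groups overlapped. No difference was detectable at this depth, and no fold is given. *Cd74*, which encodes the invariant chain, rose to 3.00 ± 0.566 CPM from 1.67 ± 0.267 CPM (SD, n = 4; log2 fold change 0.87, adjusted p = 0.000648 from edgeR). Of the 7 genes listed for the invariant chain and class II, 5 were tested, 2 rose and none fell, the second being *H2-Ab1* at 12.4 ± 0.567 against 5.71 ± 0.33 CPM (log2 fold change 1.12, adjusted p = 1.5e-10). *H2-Eb1*, *H2-DMa* and *H2-DMb1* did not pass. Below the filter were *H2-Aa*, with 0 to 1 counts with IL-1β and 0 to 4 with vehicle, and *Ciita*, with 5 to 12 and 7 to 15.

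*Ctsd* encodes cathepsin D, the aspartic protease, and was the most abundant member. It had 447, 460, 468 and 480 CPM in IL-1β replicates 1 to 4 and 502, 551, 537 and 561 CPM in vehicle replicates 1 to 4. All IL-1β samples were lower, although the gap between the highest IL-1β and the lowest vehicle sample was smaller than the spread within the vehicle group. The means were 464 ± 13.8 and 538 ± 25.9 CPM (SD, n = 4), and edgeR gave a log2 fold change of -0.21 ± 0.0346 (SE) at an adjusted p = 9.31e-06. *Ctsd* (ENSMUSG00000007891.16) lies on the minus strand of chromosome 7 from 142375911 to 142388038, and 34.4% of its exon bases are shared with *Gm49369* on the same strand, which had 0 counts in every sample.

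*Ctsa* encodes cathepsin A, a carboxypeptidase that also holds β-galactosidase (*Glb1*) and neuraminidase (*Neu1*) in a protective complex in the lysosome. Its abundance was 166, 169, 180 and 177 CPM in IL-1β replicates 1 to 4 and 153, 155, 158 and 151 CPM in vehicle replicates 1 to 4. The groups did not overlap, but the difference was small. The means were 173 ± 6.9 and 154 ± 2.71 CPM (SD, n = 4), and edgeR gave a log2 fold change of 0.17 ± 0.0315 (SE) at an adjusted p = 6.62e-05. Its partner *Glb1* rose to 25.7 from 19.5 CPM (log2 fold change 0.39, adjusted p = 4.71e-06), while *Neu1* had 19.9 and 18.9 CPM (log2 fold change 0.08, adjusted p = 0.356) and did not pass the test. Of the exon bases of *Ctsa*, 17.4% are shared with *Neurl2* and *Pltp* on the opposite strand. These had 12 to 30 and 17 to 49 counts per sample, respectively.

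*Cst3*, the inhibitor, had 136, 128, 142 and 137 CPM in IL-1β replicates 1 to 4 and 161, 171, 160 and 162 CPM in vehicle replicates 1 to 4. All IL-1β samples were below all vehicle samples. The means were 136 ± 5.78 and 163 ± 5.02 CPM (SD, n = 4), and edgeR gave a log2 fold change of -0.26 ± 0.0333 (SE) at an adjusted p = 1.62e-07, or 0.833-fold with a 95% confidence interval of 0.794 to 0.873. *Cst3* (ENSMUSG00000027447.6) lies on the minus strand of chromosome 2 from 148871722 to 148875692.

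**Figure D2:**
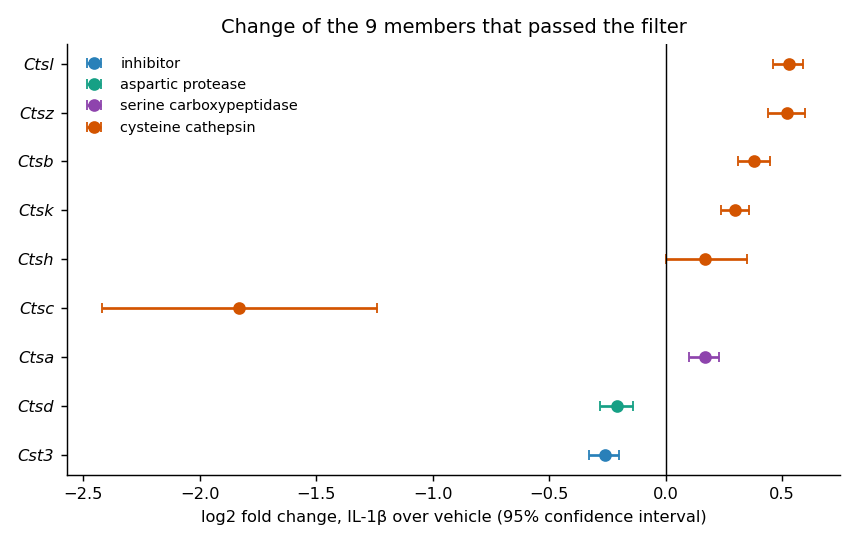
Log2 fold change of IL-1β over vehicle (x axis) with 95% confidence intervals from edgeR for the 9 members that passed the filter, colored by kind of protease or inhibitor. *Ctsl* (0.53), *Ctsz* (0.52), *Ctsb* (0.38) and *Ctsk* (0.30) lie to the right of 0, *Cst3* (-0.26) and *Ctsd* (-0.21) to the left, and *Ctsc* (-1.83) far to the left with a wide interval.

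To compare levels between genes, counts were divided by the gene length listed beside them and scaled to the same fixed total in every sample, the unit being TPM (per-length share of transcripts). In vehicle, the level was highest for *Ctsd*, at 638 ± 20.9 TPM (SD, n = 4), followed by *Cst3* at 360 ± 15.2 TPM, *Ctsk* at 202 ± 4.43 TPM and *Ctsz* at 186 ± 11.9 TPM. Then came *Ctsb* at 91.4 ± 2.73 TPM, *Ctsa* at 91.3 ± 3.69 TPM and *Ctsl* at 43.5 ± 1.61 TPM. *Ctsh* had 6.91 ± 0.171 TPM, *Ctsc* 0.86 ± 0.132 TPM and *Ctss* 0.484 ± 0.3 TPM. The ranges of the vehicle samples overlapped between *Ctsk* and *Ctsz*, between *Ctsb* and *Ctsa*, and between *Ctsc* and *Ctss*, and the other neighbors in this order were apart. By mean TPM in vehicle, *Ctsd* ranked 140 and *Cst3* 267 among all gene symbols. The cathepsin messages of these chondrocytes were thus led by the aspartic protease, with the collagenase cathepsin K the highest of the cysteine class.

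With IL-1β, the level of *Ctsz* (258 ± 4.93 TPM) was above that of *Ctsk* (241 ± 9.37 TPM) without overlap of the samples, and the order of the other members did not change. Only *Ctsc* and *Ctss* still had overlapping ranges. The listed lengths include exon bases shared with other genes (34.4% for *Ctsd*, 26.8% for *Ctsl*, 17.4% for *Ctsa* and 12.8% for *Ctsb*). How reads on shared bases were counted is not given in the sources used here, and its effect on levels and shares was not tested. The listed lengths add up all annotated exons, and for *Ctsl* this is 6489 bases, against 1971 bases for transcript 201 alone. With the lengths of transcript 201, *Ctsl* was at 143 ± 5.3 TPM in vehicle and 200 ± 3.11 TPM with IL-1β, above *Ctsa* and *Ctsb* in each group. The rank of *Ctsl* therefore depends on which transcript is taken to be made, whereas *Ctsd*, *Cst3*, *Ctsk* and *Ctsz* kept their ranks in each group.

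**Figure D3:**
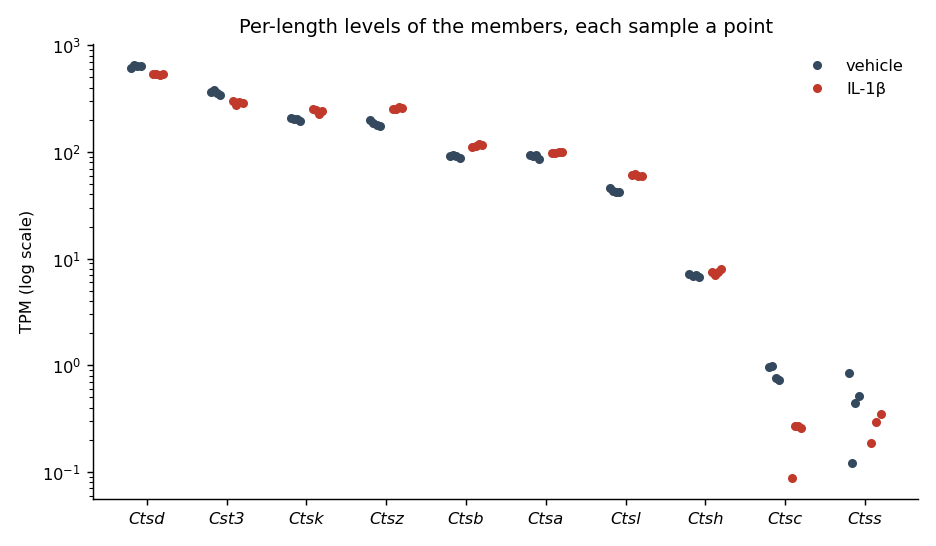
Levels per gene length in TPM (y axis, log scale) of the 10 members in each of the 4 vehicle and 4 IL-1β samples, ordered by the vehicle mean. IL-1β replicate 4 is at 0 for *Ctss* and is not drawn. Levels run from *Ctsd* (638 TPM in vehicle) down to *Ctss* (0.484 TPM), and *Ctsz* passes *Ctsk* with IL-1β.

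As shares of the summed TPM of the 9 cathepsins, *Ctsd* made up 48.5 to 51.8% in the vehicle samples and 40.2 to 40.8% in the IL-1β samples. *Ctsz* made up 14.1 to 16% and 19.2 to 20.3%, *Ctsk* 15.7 to 16.4% and 17.5 to 19.1%, *Ctsb* 7.08 to 7.34% and 8.54 to 9.05%, and *Ctsl* 3.36 to 3.65% and 4.54 to 4.71%, respectively. The sum itself was 1260 ± 22.4 TPM in vehicle and 1310 ± 7.44 TPM with IL-1β (SD, n = 4), so on this scale the make-up of the pool differed more than its size. In TMM-scaled CPM, the sum was 1210 ± 23.6 (1180 to 1230) in vehicle and 1330 ± 42 (1270 to 1360) with IL-1β, a larger rise. The 7 cysteine cathepsins together went from 531 ± 19.6 TPM to 682 ± 2.41 TPM.

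The cysteine cathepsins were then set against *Cst3* within each sample, a ratio that does not depend on how samples are scaled. It leaves out other inhibitors of these enzymes. Of those, *Cstb* (cystatin B) was at 201 ± 5.94 TPM in vehicle and 247 ± 7.49 TPM with IL-1β (SD, n = 4), opposite in direction to *Cst3*. *Cst6* was at 12.6 TPM in vehicle and 10.9 TPM with IL-1β. The summed TPM of the 7 cysteine cathepsins over that of *Cst3* was 1.53, 1.42, 1.47 and 1.48 in vehicle replicates 1 to 4 and 2.27, 2.46, 2.29 and 2.39 in IL-1β replicates 1 to 4. The ratio was higher in all 4 IL-1β samples, with means of 1.47 ± 0.0476 and 2.35 ± 0.089 (SD, n = 4), a factor of 1.6. For single genes, the mean ratio to *Cst3* was higher with IL-1β by a factor of 1.73 for *Ctsl*, 1.72 for *Ctsz*, 1.56 for *Ctsb*, 1.48 for *Ctsk* and 1.35 for each of *Ctsa* and *Ctsh*, without overlap between the groups. *Ctsc* went the other way, from 0.00238 ± 0.000286 in vehicle to 0.000772 ± 0.000324 with IL-1β (SD, n = 4), a factor of 0.324 on few counts. The groups did not overlap, but *Ctsc* passed the filter only through the vehicle samples, so this separation carries no weight of its own. *Ctss* was at 0.000316 to 0.00235 in vehicle and 0 to 0.00117 with IL-1β, where its counts were at or under the smallest number taken as shown, and the groups overlapped. For *Ctsd* the ratio was 1.68 to 1.87 in vehicle and 1.77 to 1.93 with IL-1β, and the groups overlapped. These ratios are descriptions of mRNA, with no test, and say nothing of the amount or activity of the proteins.

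**Figure D4:**
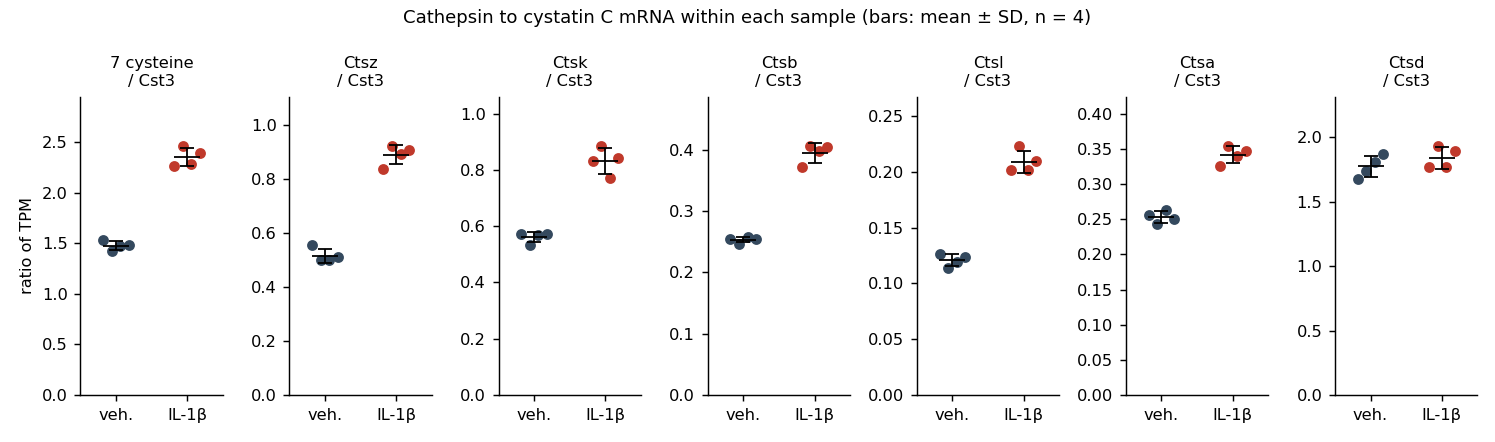
Ratio of TPM to that of *Cst3* within each sample (y axis, from 0, scaled separately for each panel) for the sum of the 7 cysteine cathepsins and for 6 single cathepsins. Points are samples and bars are mean ± SD, n = 4. The summed ratio is 1.42 to 1.53 in vehicle and 2.27 to 2.46 with IL-1β, and *Ctsd* alone has overlapping groups among the panels.

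Other cathepsins and inhibitors were compared in the same fit. Of 14 further cathepsin genes, 3 were tested (*Ctsf*, *Ctso* and *Ctsw*), and none passed. *Ctsf* had 13.7 and 12.4 CPM with IL-1β and vehicle (log2 fold change 0.15, adjusted p = 0.172), and 10 of the 14, which include the placental cathepsins of the mouse, had 0 counts in every sample. Of 20 further genes listed as inhibitors, 3 were tested. The list holds cystatins and related proteins, not all of which, *Fetub* among them, are known to inhibit cysteine cathepsins. *Cstb*, which encodes the intracellular inhibitor cystatin B, rose to 55.1 ± 1.1 CPM from 43.4 ± 0.843 CPM (SD, n = 4; log2 fold change 0.34 ± 0.0406 (SE), adjusted p = 5.54e-08 from edgeR). Its direction was opposite to that of *Cst3*, whose product is secreted. *Cst6* (log2 fold change -0.17, adjusted p = 0.0777) and *Fetub* (log2 fold change 0.43, adjusted p = 0.216) did not pass.

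The genes that sort, activate and surround cathepsins in the lysosome were examined as 4 lists, with 91 genes in all. Of the 87 tested, 38 (43.7%) were higher and 5 (5.75%) were lower with IL-1β, against 20.4% and 19.8% over all genes tested. The lists were chosen with earlier results of these data known and were not matched to all genes by abundance. The shares are therefore descriptions, and no test was made of the lists. Among 19 genes for sorting, activation and partners, 8 rose and 2 fell. *Psap*, the precursor of the saposins and a substrate of cathepsin D, rose to 441 from 347 CPM (log2 fold change 0.34, adjusted p = 1.89e-10), and *Gnptab*, which encodes subunits of the enzyme that makes the mannose 6-phosphate tag, to 38.6 from 31.5 CPM (log2 fold change 0.30, adjusted p = 6.81e-05). The receptors of that tag differed little: *Igf2r* had 337.0 and 334 CPM (adjusted p = 0.811), and *M6pr* rose to 136 from 125 CPM (log2 fold change 0.12, adjusted p = 0.00185). *Sorl1*, a sorting receptor of the Golgi, fell to 6.31 from 19.5 CPM (log2 fold change -1.63, adjusted p = 8.27e-14) and was the only DEG of the 4 lists, and *Scarb2*, a receptor for lysosomal glucocerebrosidase, fell to 97.9 from 119 CPM (log2 fold change -0.28, adjusted p = 8.46e-08). *Lgmn*, the protease legumain that processes cathepsin precursors, rose to 36.2 from 32.1 CPM (log2 fold change 0.18, adjusted p = 0.00541).

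Among 37 other genes for lysosomal hydrolases and lipid handling, 17 rose and 1 fell. The largest rises were those of *Gla*, α-galactosidase A (log2 fold change 0.71, 10.1 against 6.13 CPM), *Npc2*, a carrier of cholesterol (0.68, 165.5 against 103 CPM), and *Lipa*, lysosomal acid lipase (0.66, 14.3 against 9.02 CPM), with adjusted p-values of 6.8e-06, 8.82e-17 and 2.15e-07. The gene that fell was *Ids*, iduronate 2-sulfatase (log2 fold change -0.55, 78.9 against 116 CPM, adjusted p = 8.71e-14). Of 20 tested genes for the vacuolar proton pump, which acidifies lysosomes, 7 rose and 1 fell. *Atp6v0e2* had a log2 fold change of 0.32, *Tcirg1* and *Atp6v0a1* each had 0.25, and *Atp6v1e1*, which fell, had -0.16. Of 11 tested regulators of lysosomal genes, 6 rose and 1 fell. The family of transcription factors that binds lysosomal promoters did not move as a block, since *Tfe3* (log2 fold change 0.29, adjusted p = 2.9e-08) and *Mitf* (0.50, adjusted p = 1.46e-07) rose, while *Tfeb* fell to 9.29 from 13.8 CPM (-0.58, adjusted p = 6.64e-06). *Fnip1*, a partner of folliculin, rose by 0.43 on the log2 scale (adjusted p = 2.55e-07).

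**Figure D5:**
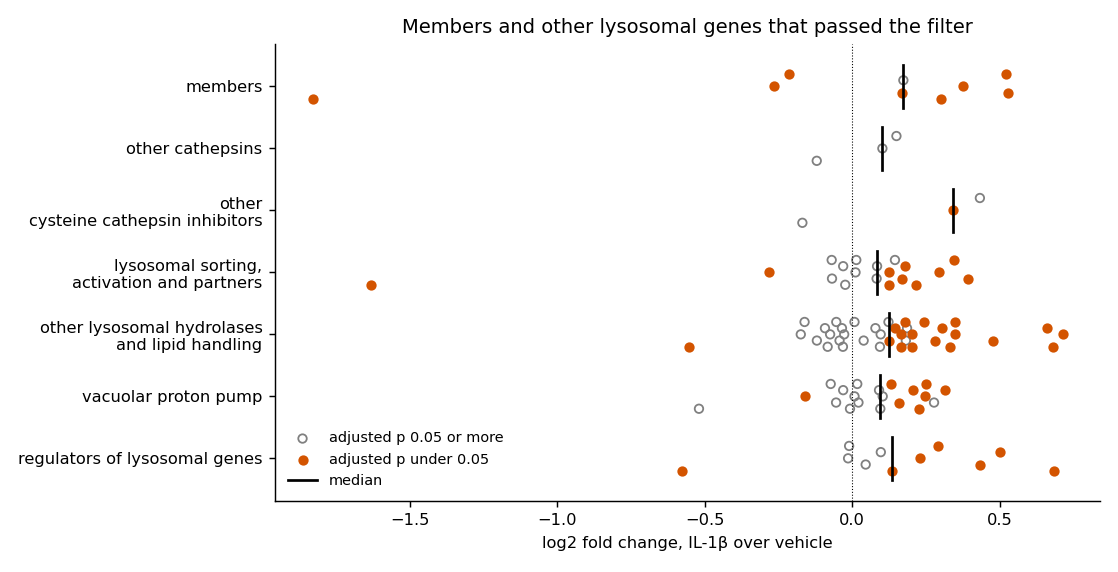
Log2 fold change of IL-1β over vehicle (x axis) for the members and 6 lists of related genes, 1 point per gene that passed the filter. Filled points have an adjusted p-value under 0.05 from edgeR, open points do not, and black bars are medians. In the 4 lists on sorting, hydrolases, proton pump and regulators, filled points lie mostly between 0 and 0.71, with *Sorl1* (-1.63) farthest to the left.

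The factors of that family bind the core letters CACGTG, so the promoters of the members were searched for them. RefSeq promoter windows of 300 bases (250 before to 50 after the start site, assembly GRCm38.p6) were given for 8 of the 10 genes, in 9 windows, and not for *Ctsb* and *Ctsh*. On both strands, CACGTG was found for *Ctsa*, *Ctsd* and *Ctsl*, and in 7.15% of all 32851 windows. The longer TCACGTGA, which contains it, was found for *Ctsa* and *Ctsd*, and in 0.974% of all windows. The sites are shown with the flanking bases, 5′ to 3′ on the strand of the gene, with CACGTG in capitals.
*Ctsa*, upstream site (chr2:164833750-164833777, plus strand): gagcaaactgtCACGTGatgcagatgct
*Ctsa*, downstream site (chr2:164833767-164833794, plus strand): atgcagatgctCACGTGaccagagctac
*Ctsd*, proximal site (chr7:142387909-142387936, minus strand): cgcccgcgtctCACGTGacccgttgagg
*Ctsd*, distal site (chr7:142388050-142388077, minus strand): tccccCACGTGacctgtatccagtcatt
*Ctsl* (chr13:64370740-64370767, minus strand): gcgttagaagcCACGTGctgatctaaat
Of these 3 genes, *Ctsa* and *Ctsl* rose and *Ctsd* fell, so the letters were found in members of each direction. The AP-1 letters TGANTCA were in no window of the members and in 7.81% of all windows, and the NF-κB motif was in that of *Ctsz* and in 8.46% of all windows. A match of letters is a description of the sequence and not a sign of binding.

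Markers of cell types were examined because cathepsins K and S are abundant in osteoclasts and macrophages. All 15 chondrocyte markers were tested and all fell with IL-1β, although *Ucma* (5 to 10 counts with IL-1β and 31 to 66 with vehicle) passed the filter only through vehicle, and 14 remained, all lower, with a CPM above 1 in all 8 samples. The 15 together had 17000 to 17700 CPM in vehicle and 4470 to 4890 CPM with IL-1β. The largest falls were those of the matrix genes *Matn1* (log2 fold change -2.79), *Acan* (-2.37) and *Comp* (-2.33), while *Col2a1*, type II collagen, was still at 2853 ± 117 CPM (SD, n = 4) with IL-1β. Of 15 macrophage markers, 3 were tested. *Cd14* rose to 14 from 3.86 CPM (log2 fold change 1.86, adjusted p = 9.31e-15), *Cd68*, also a lysosomal membrane protein, rose to 15.0 from 9.51 CPM (0.67, adjusted p = 8.49e-07), and *Lyz2* fell to 1.25 from 1.87 CPM (-0.60, adjusted p = 0.0364), a call that was lost by DESeq2. The sum over all 15 was 16.9 to 20.2 CPM in vehicle and 31.1 to 35.3 CPM with IL-1β. Several markers below the filter were at or near 0, with at most 6 counts in any sample for *Ptprc*, 3 for *Adgre1*, 3 for *Itgam* and 0 for *C1qb*. *Csf1r* had 7 to 19 counts, and *Mrc1* and *Fcer1g* had at most 12 and 9. *Laptm5*, also below the filter, had 3 to 9 counts with IL-1β and 14 to 22 with vehicle.

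Of 8 osteoclast markers, 1 was tested, *Itgb3*, which fell (log2 fold change -0.68, adjusted p = 0.0283), a call that was lost by DESeq2 and without any 1 of 5 of the samples. *Dcstamp* had 0 counts in every sample, *Calcr* and *Ocstamp* at most 2 and *Acp5* 4 to 13, and the sum over the list was 3.01 to 3.58 CPM in vehicle and 2.44 to 2.97 CPM with IL-1β. Next to these, *Ctsk* had 1497 to 2203 counts per sample. Of 10 neutrophil markers, *Camp* alone was tested, and it passed the filter only through the IL-1β samples, with 14 to 25 counts there and 0 to 5 in vehicle, so no fold is given. The list summed to at most 0.527 CPM in vehicle and 1.30 to 1.63 CPM with IL-1β. Of 8 endothelial markers, 1 was tested and did not pass, with sums of 1.28 to 1.98 and 1.88 to 2.17 CPM. Of 8 fibroblast markers, 5 were tested: *Pdpn* (log2 fold change 2.26), *Cd34* (0.76) and *Pdgfra* (0.58) rose and *Col3a1* (-0.34) fell, with sums of 179 to 188 CPM in vehicle and 203 to 222 CPM with IL-1β. The part that the loss of chondrocyte markers or the mixed changes of fibroblast markers have in the changes of the cathepsins was not tested.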

How the data were processed

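Reads were adapter-trimmed (cutadapt), mapped to mm10 (STAR, GENCODE vM20) and assigned to genes (featureCounts) by the authors, who deposited unscaled, whole-number counts per gene symbol and, in another column, each gene's length. Whether the counts precede or follow batch correction, and whether counting used strand, is not given in the sources used here. All 8 count columns were used, and each sample's group was taken from its label.

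TMM scaling was followed by the quasi-likelihood test of edgeR 4.0.16 in R 4.3.3, with treatment as the only term. On simulated data with 200 changed genes among 14378, 55% of log2 changes of 0.3 and 100% of log2 changes of 1 were recovered with 7 false calls, and 0 calls were made when none changed. The simulation gave every gene the same dispersion, set above the common value of the data, and changed only genes above 5 CPM. Its shares therefore do not give the sensitivity for single members, nor for low genes such as *Ctsc*. TPM used the listed lengths, and protein identity used Biopython 1.88 (BLOSUM62, global alignment). Positions follow GENCODE vM21, whose total exon lengths equal the listed lengths for all 10 members. The members and gene lists were chosen with earlier results of these data known. Named genes beyond the members are up to 3 per list and direction with adjusted p under 0.05, groups that do not overlap and at least 5 CPM. Other genes were named after their values were seen: *Cd74*, *Neu1*, *Igf2r*, *M6pr*, *Lgmn*, *Ctsf*, *Ctso*, *Ctsw*, *Cst6*, *Fetub*, *Col2a1* and the low marker genes. The same holds for *Col1a1*, *Ciita*, *H2-Aa*, *H2-Eb1*, *H2-DMa* and *H2-DMb1*. Alternatives were DESeq2 1.42.0, other scalings and filters, the replicate number as a block, 1 factor of unwanted variation, other gene lengths, and each sample left out.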

Additional observations from a re-analysis of the deposited data

Results flagged for a closer look

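The CPM of 37 genes and the library totals were screened in the IL-1β and vehicle groups, 76 groups of 4 values in all. In 7 of them the highest or lowest sample stood apart by Dixon's ratio at the 95% level, and about 1 group in 20, or 3.8 here, would do so by chance. Of the members, *Ctsc* in IL-1β replicate 1 was at 0.181 CPM, with the others at 0.569 to 0.596 CPM. *Ctsl* in the same sample was at 141 CPM, and 147 CPM in each of the others. *Cst3* was at 171 CPM in vehicle replicate 2, against 160 to 162 CPM, and the groups remained apart without that sample, since it lay on the far side from IL-1β. In IL-1β replicate 2, *Gnptab* was at 43.7 CPM (others 36.6 to 37.1 CPM) and *Lipa* at 13.8 CPM (others 14.4 to 14.5 CPM). *H2-Ab1* was at 5.22 CPM in vehicle replicate 3, against 5.85 to 5.93 CPM, and *Comp* at 551 CPM in vehicle replicate 4, against 525 to 529 CPM.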

How the results depend on the processing

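The 9 tested members kept their direction and their side of the threshold in all 134 values from 15 alternatives, and *Ctsc* could not be fitted with a CPM above 1 in all 8 samples, which leaves 0 members as downregulated DEGs. With each sample left out, the log2 fold change was 0.51 to 0.54 for *Ctsl*, -0.29 to -0.23 for *Cst3* and -1.95 to -1.62 for *Ctsc*. The replicate block, whose numbers do not pair the samples (same-number correlation of deviations -0.0699 to 0.0415), gave 2857 higher and 2787 lower genes in place of 2944 and 2852, and among the lists moved the macrophage markers lower to 0 and the fibroblast markers lower to 2. The median log2 fold change of all genes was -0.006 to -0.001 under each scaling. The inhibitors called higher were 3 without a filter, macrophage and osteoclast markers lower were each 0 by DESeq2 and with a CPM above 1 in all 8 samples, and the neutrophil markers higher were 0 (1 otherwise) by that filter. With samples left out, counts of lower genes were 0 to 1 (inhibitors, 1 without IL-1β replicate 4), 1 to 2 (hydrolases, 2 without IL-1β replicate 4), 0 to 2 (proton pump, 0 without IL-1β replicate 3, 2 without vehicle replicate 3 or 4), 0 to 2 (macrophage, 2 without IL-1β replicate 1, 0 without vehicle replicate 3), 0 to 1 (osteoclast, 0 without IL-1β replicate 3 or 4 or vehicle replicate 2, 3 or 4) and 1 to 2 (fibroblast, 2 without IL-1β replicate 3). The cause was not tested. The ratio of cysteine cathepsins to *Cst3* was 3.50 in vehicle and 4.53 with IL-1β for all 9 cathepsins, 3.17 and 5.06 without division by length, and 1.26 and 2.03 with transcript 201, an alternative chosen after seeing the data. Depth limits *Ctss* and *Ctsc*, with at most 7 and 35 counts per sample.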

Other observations

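For the member with the largest rise, *Ctsl*, the 3 tested genes with the most similar pattern (Pearson's r of log2(CPM + 1) over the 8 samples) were *Ier5* (r = 0.998), *C1ra* (r = 0.998) and *1700025G04Rik* (r = 0.997), with log2 fold changes of 0.61, 2.62 and 0.43. For the member with the largest fall, *Ctsc*, they were *P4hb* (r = 0.998), *Adcy9* (r = 0.994) and *S100a1* (r = 0.993), with log2 fold changes of -0.09, -0.80 and -0.39. All points share the same 8 libraries in 2 separate groups, and 946 and 451 genes, respectively, had an r above 0.95, so these values describe the split into groups.

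*Stfa3*, a stefin of the intracellular cystatin family that was named after its values were seen, was below the filter. It held 9, 10, 10 and 12 counts in IL-1β replicates 1 to 4 and 0, 3, 1 and 0 counts in vehicle replicates 1 to 4, the latter all at or under the smallest number taken as shown.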
